A study of Rattus norvegicus with 21 samples.

Results

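Hspa5, Ddit3, Atf4, Trib3 and Asns are 5 genes of the cellular response to misfolded protein and to a shortage of amino acids. They were followed through RNA sequencing of neonatal rat ventricular myocytes (NRVMs), cultures of heart muscle cells taken from newborn rats. Their level of KLF2, a zinc finger transcription factor, had been manipulated downwards or upwards. The genes were chosen by their Ensembl IDs, which are ENSRNOG00000018294 for Hspa5, ENSRNOG00000006789 for Ddit3, ENSRNOG00000017801 for Atf4, ENSRNOG00000007319 for Trib3 and ENSRNOG00000007546 for Asns. All 5 were present among the 30560 IDs of each of 2 tables of raw counts, and all 5 passed the filter on low counts in both. The tables list IDs without symbols, so the names rest on the choice of these IDs and were not checked against an annotation.

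The knockdown table held 4 groups of 2 libraries. They were siKlf2 with phenylephrine (PE), siNeg with PE, siKlf2 and siNeg, where siKlf2 is a small interfering RNA against Klf2 and siNeg its negative control. The overexpression table held 4 groups of 3 libraries, which were Ad-Klf2 with PE, Ad-GFP with PE, Ad-Klf2 and Ad-GFP. Ad-Klf2 is an adenovirus carrying Klf2, and Ad-GFP is the control virus carrying green fluorescent protein. PE activates α1-adrenergic receptors and makes cardiomyocytes in culture grow in size, and the labels give 100 µM for 36 h. In the knockdown experiment cells received the small interfering RNA 12 h ahead of PE. In the overexpression experiment PE came first, for 12 h, and virus was then present for another 24 h. Every knockdown library therefore comes from cells given a small interfering RNA and every overexpression library from virus-infected cells, and no group was left untouched. All cultures were kept in a medium with insulin, transferrin and selenium. The treatment field of the labels names PE for every library, so PE groups were taken from the titles, which match the times of 0 and 36 h in another field. These times do not show whether libraries at 0 h were harvested earlier than those at 36 h. If they were, a change with PE cannot be told apart from a change with time in culture, in any comparison or interaction below. The labels state neither the purity of the myocytes nor whether replicates came from separate preparations, so a p-value reflects only how much these libraries vary, and that variation may be technical. The level of Klf2 and the markers of cardiac cell types were not analysed here, because the other IDs had no symbols. Whether knockdown or added KLF2 reached the same level with and without PE is therefore not known. A PE change in siKlf2 or Ad-Klf2, or an interaction, cannot be told apart from such a difference in level.

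When misfolded protein accumulates in the endoplasmic reticulum, the unfolded protein response raises chaperones through the transcription factors ATF6 and XBP1, while the kinase PERK phosphorylates the translation factor eIF2α. Amino acid shortage acts on the same factor through the kinase GCN2, and the shared branch is called the integrated stress response. Phosphorylated eIF2α lowers general protein synthesis but favours translation of ATF4, which then drives its target genes. ATF4 is controlled to a large extent at translation, so its mRNA level does not give its protein level. In the heart these pathways are known from pressure overload and ischaemia, where protein synthesis and folding load change.

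Promoter letters are shown for the genes that matched an element known for one of these branches or for Krüppel-like factors, the family of KLF2. RefSeq promoter sequences (GRCr8, 250 bases before to 50 after the gene start) were available for all 5 and were searched on both strands. The letters searched were CCAAT and CCACG with any 9 bases between them for the ER stress element, at which ATF6 acts, TGATGNAA for the core of the C/EBP-ATF response element, at which ATF4 acts, and CCNCACCC for a Krüppel-like factor box. The following windows hold the matches, and capitals mark the matched letters.
Hspa5, ER stress element, chr3:38452943-38453015, plus strand: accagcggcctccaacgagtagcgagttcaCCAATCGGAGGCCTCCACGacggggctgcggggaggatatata
Trib3, C/EBP-ATF response element on the reverse strand, chr3:161275534-161275584, minus strand: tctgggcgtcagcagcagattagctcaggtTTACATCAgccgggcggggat
Ddit3, Krüppel-like factor box on the reverse strand, chr7:65001552-65001619, plus strand: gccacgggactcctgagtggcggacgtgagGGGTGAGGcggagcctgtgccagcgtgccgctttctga
The ER stress element of Hspa5 began 43 bases before the gene start, and it was found in 0.0657% of 33469 promoters of this length. The response element core of Trib3 began 21 bases before the start, and 3.98% of promoters held one. A Krüppel-like factor box was found in 15.3% of promoters, and among the 5 genes in that of Ddit3 alone, 113 bases before the start. These are matches of letters in a short window and do not show binding. No element of these 3 kinds matched in the windows of Atf4 and Asns.

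Library totals ran between 181101876 and 224082309 counts for knockdown and between 32693762 and 76138723 counts for overexpression. The 5 genes had between 783 and 191568 counts in every library. Levels are given in CPM, counts scaled to a common library total after correction with TMM factors, and can be compared between groups of a table but not between genes or tables. Across genes, log2 CPM of replicates correlated at 0.995 to 0.9957 for knockdown and at 0.9821 to 0.9915 in 3 groups of the overexpression table, but at 0.9593 to 0.9651 in Ad-GFP without PE. These 3 Ad-GFP libraries were thus less like each other than the replicates of the other groups of their table. They enter the comparisons of Ad-Klf2 with Ad-GFP, of Ad-GFP + PE with Ad-GFP, and the interaction. In bulk RNA, fewer cells of a type and less RNA per cell cannot be told apart.

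**Figure D1:**
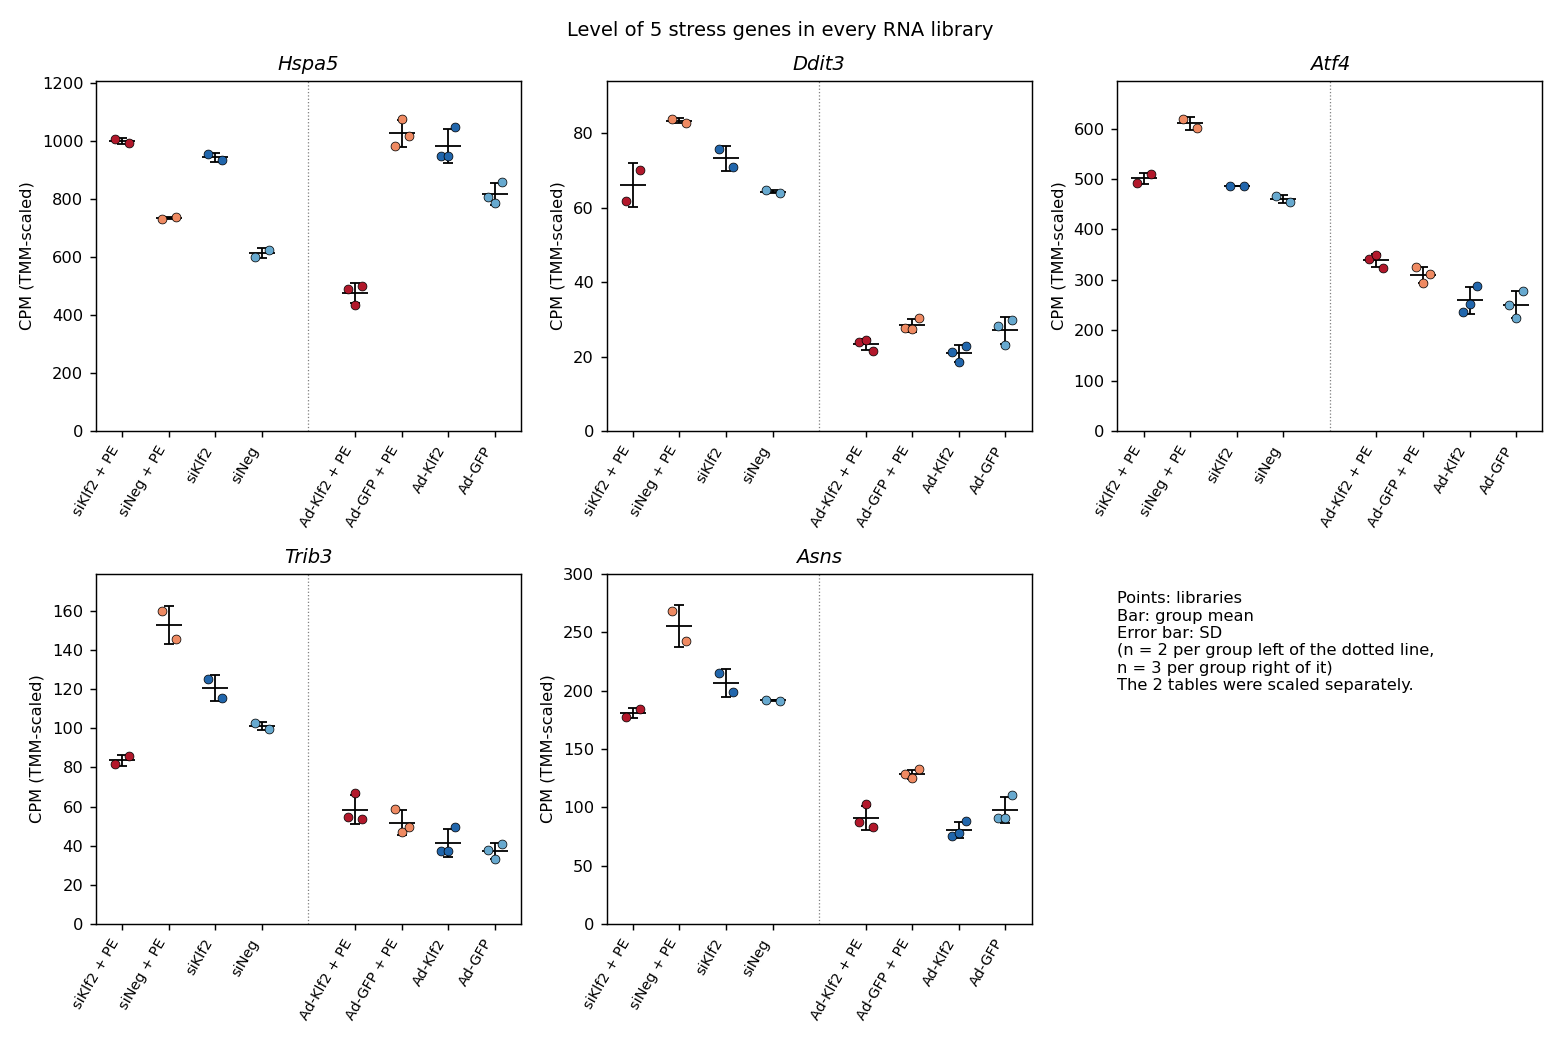
Level in CPM (linear axis from 0) of Hspa5, Ddit3, Atf4, Trib3 and Asns in all 20 RNA libraries, with group means and SD. Hspa5 was higher in both siKlf2 groups than in the siNeg groups, and lowest in Ad-Klf2 + PE within the overexpression table. Ddit3, Atf4, Trib3 and Asns peaked in siNeg + PE within the knockdown table.

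A gene was called when edgeR's quasi-likelihood test gave a p under 0.05 after Benjamini-Hochberg adjustment over all tested genes of a comparison. Percentages after each count are the share of all tested genes called in that direction. PE raised all 5 genes in siNeg (24.8%) and lowered none (24.3%), whereas in siKlf2 it lowered 3 (23.7%) and raised none (24.4%). PE raised 2 in Ad-Klf2 (31.6%) and lowered 1 (29.6%), and in Ad-GFP it raised 4 (18.3%) and lowered none (16.3%). Knockdown without PE raised 3 (27.2%) and lowered none (26.8%), and knockdown with PE raised 1 (26.1%) and lowered 4 (28.2%). Overexpression without PE raised 1 (20%) and lowered 2 (15.1%), and overexpression with PE raised none (33.6%) and lowered 3 (32.1%). The interaction tests whether the PE response differed between arms. It was called in either direction for 14.4% of genes in the knockdown table, and there it was lower after knockdown for all 5 genes (7.35%) and higher for none (7.08%). In the overexpression table it was called for 49.1% of genes, and it was lower under Ad-Klf2 for 1 of the 5 (24.0%) and higher for none (25.1%).

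Most of these changes were small. A called change of at least 1.5-fold was seen for Hspa5 with knockdown alone (17.3% of all tested genes), for Trib3 with knockdown under PE (18.0%) and with PE in siNeg (13.9%), and for Trib3 and Asns in the knockdown interaction (2.46%). In the overexpression table Hspa5 reached it for Ad-Klf2 with PE (46.1%), for PE in Ad-Klf2 (39.9%) and in the interaction (35.1%). None of the 5 reached it for PE in siKlf2 (13.7%), Ad-Klf2 without PE (15.8%) or PE in Ad-GFP (14%). Groups of libraries also failed to overlap for many other genes. That share of all tested genes was 78.0% for knockdown, 74.6% for knockdown under PE, 74.3% for PE in siKlf2 and 73.4% for PE in siNeg. It was 42.5% for Ad-Klf2 without PE, 74.1% for Ad-Klf2 with PE, 71.7% for PE in Ad-Klf2 and 41.2% for PE in Ad-GFP. The share of genes for which all groups of a table stood apart was not computed, so the orders given below are descriptions. Without TMM factors, scaling by the totals of the libraries moved the median log2 fold change of all genes to between -0.30 and -0.07 in the knockdown table and to between -0.21 and -0.04 in the overexpression table. Changes are therefore relative to the bulk of genes, and small ones whose direction or call depended on this scaling are named as such.

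**Figure D2:**
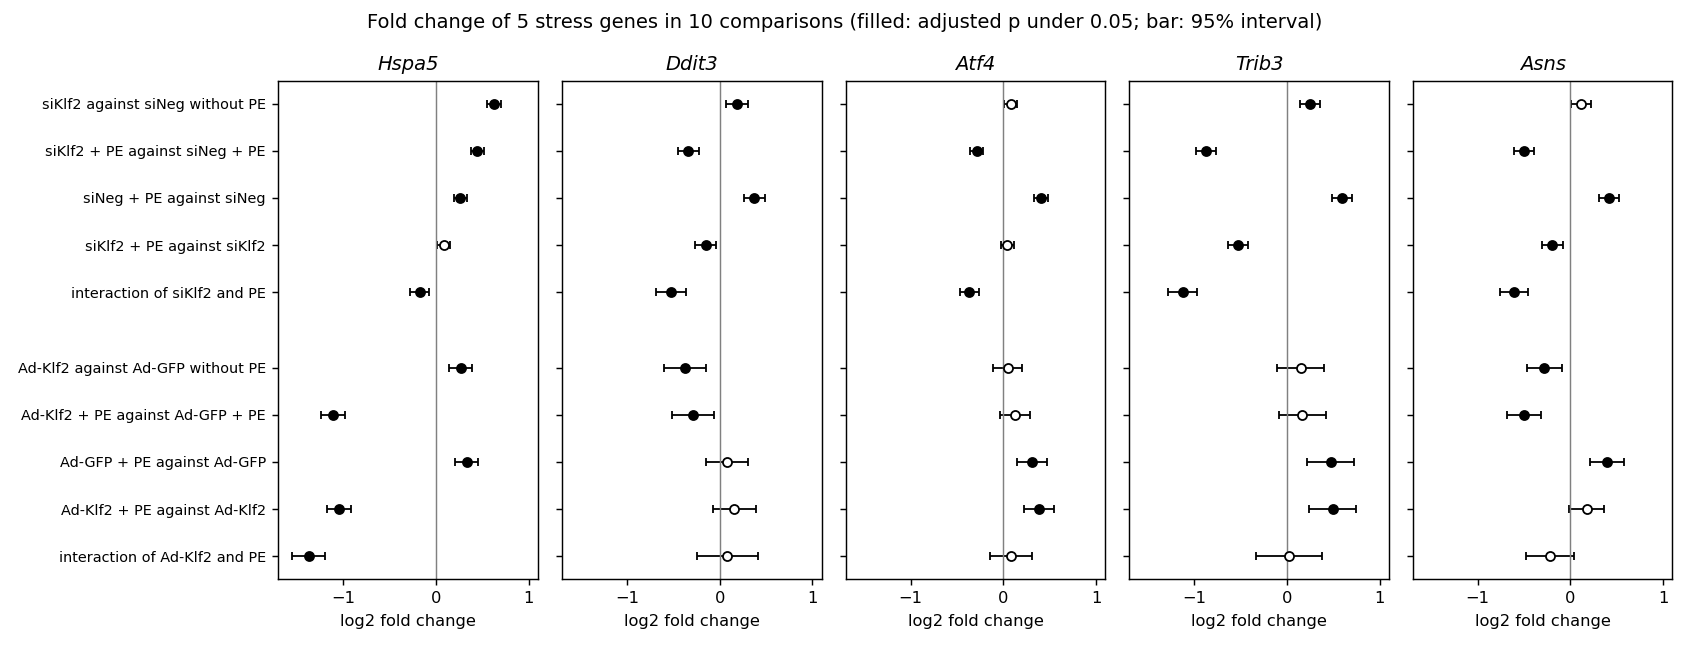
Log2 fold change of each gene in 10 comparisons, with 95% intervals. Filled points passed an adjusted p of 0.05, and the group named first is on top of the fold, so that points right of 0 are higher there. Hspa5 in the Ad-Klf2 comparisons with PE and Trib3 in the knockdown interaction and in siKlf2 + PE against siNeg + PE lie farthest from 0.

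Hspa5 encodes BiP, the Hsp70 chaperone of the endoplasmic reticulum, which binds unfolded protein and also holds the stress sensors inactive. It was higher in knockdown cells and, under PE, lower in overexpressing cells. Without PE it stood at 954 and 934 CPM in siKlf2, against 601 and 625 CPM in siNeg. With PE it stood at 1006 and 993 CPM in siKlf2, against 731 and 738 CPM in siNeg. No siKlf2 library came down to the level of a siNeg library. The log2 fold change was 0.62 without PE (standard error 0.032, edgeR adjusted p = 3.66e-08), a 1.54-fold rise, and 0.45 with PE (SE 0.032, edgeR adjusted p = 5.02e-07), a 1.36-fold rise. With library totals alone the rise with PE was 0.18 on the log2 scale, still called (edgeR adjusted p = 0.00102).

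PE itself raised Hspa5 by 0.26 on the log2 scale in siNeg (SE 0.032, edgeR adjusted p = 4.07e-05), or by 0.16 with library totals alone. In siKlf2 the PE change of Hspa5 was 0.08 (95% interval 0.01 to 0.15, edgeR adjusted p = 0.0533). That change in siKlf2 was -0.09 with library totals alone, and it was called with DESeq2 (adjusted p = 0.00629), with RLE size factors (edgeR adjusted p = 0.0229) and in a fit of these 2 groups alone (edgeR adjusted p = 0.0431). The difference between both PE responses was -0.18 (SE 0.046, edgeR adjusted p = 0.0241), a call that was lost without either siKlf2 library, without either siKlf2 + PE library or without siNeg replicate 1, with an edgeR adjusted p of up to 0.145. The 4 knockdown groups stood in the order siKlf2 + PE, siKlf2, siNeg + PE and siNeg, with no overlap between neighbours.

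In the overexpression table Hspa5 fell to 489, 435 and 501 CPM in Ad-Klf2 + PE, against 983, 1078 and 1017 CPM in Ad-GFP + PE. All 3 values were below every other library of the table. The log2 fold change was -1.11 (standard error 0.06, edgeR adjusted p = 5.21e-12), a 2.16-fold fall, and it was -1.18 when the 3 Ad-GFP libraries without PE were left out of the fit. Without PE the direction was the opposite. Hspa5 stood at 948, 948 and 1049 CPM in Ad-Klf2, against 806, 787 and 859 CPM in Ad-GFP, a rise of 0.26 on the log2 scale (SE 0.059, edgeR adjusted p = 0.00159).

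PE thus lowered Hspa5 in Ad-Klf2 (log2 fold change -1.05, SE 0.059, edgeR adjusted p = 2.06e-11) and raised it in Ad-GFP (log2 fold change 0.33, SE 0.059, edgeR adjusted p = 0.000241). The rise in Ad-GFP was 0.19 with library totals alone. The interaction was -1.38 (SE 0.084, edgeR adjusted p = 1.26e-10), and 91.3% of all tested genes had a higher value. Ad-GFP + PE and Ad-Klf2 overlapped at the top of the order, followed by Ad-GFP and then Ad-Klf2 + PE. Hspa5 was the gene of the 5 with the widest span in this table, 2.16-fold between the highest and the lowest group mean. Replicate 2 of Ad-Klf2 + PE, at 34361777 counts the smallest library of its group, had the lowest value (435 CPM). Without it the log2 fold change against Ad-GFP + PE was -1.04.

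Atf4 encodes the transcription factor at the centre of the integrated stress response. Its mRNA rose with PE in 3 of the 4 arms and was lower after knockdown under PE. It stood at 620 and 602 CPM in siNeg + PE, against 466 and 455 CPM in siNeg, a rise of 0.41 on the log2 scale (SE 0.032, edgeR adjusted p = 1.09e-06). In siKlf2 the values were 493 and 509 CPM with PE, against 486 and 487 CPM without PE. The PE change there was 0.04 (95% interval -0.03 to 0.11, edgeR adjusted p = 0.304), and with library totals alone it was -0.13 and called (edgeR adjusted p = 0.0128). The interaction was -0.36 (SE 0.046, edgeR adjusted p = 0.000377).

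Under PE, Atf4 was lower in siKlf2 than in siNeg, with a log2 fold change of -0.29 (standard error 0.032, edgeR adjusted p = 1.76e-05), which was -0.55 with library totals alone. Without PE the knockdown change was 0.08 (95% interval 0.01 to 0.15, edgeR adjusted p = 0.0582). That last value was called with DESeq2 (0.10, adjusted p = 0.00729) and was -0.12 and called with library totals alone (edgeR adjusted p = 0.0186), so its direction depended on the scaling. The order in the knockdown table was siNeg + PE, siKlf2 + PE, siKlf2 and siNeg, with no overlap between neighbours.

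With all 4 groups in the fit, Atf4 had no called difference with added KLF2. The gene stood at 342, 349 and 324 CPM in Ad-Klf2 + PE, against 326, 294 and 312 CPM in Ad-GFP + PE, with a log2 fold change of 0.12 (95% interval -0.03 to 0.28, edgeR adjusted p = 0.159). A fit of these 2 groups alone gave the same size and called it (edgeR adjusted p = 0.0278). It stood at 237, 253 and 289 CPM in Ad-Klf2, against 250, 225 and 279 CPM in Ad-GFP, with a log2 fold change of 0.05 (95% interval -0.11 to 0.21, edgeR adjusted p = 0.693). In both comparisons the groups overlapped, and the intervals leave room for a rise of up to 0.28 or a value as low as -0.11. PE raised Atf4 by 0.39 in Ad-Klf2 (SE 0.076, edgeR adjusted p = 0.000228) and by 0.31 in Ad-GFP (SE 0.076, edgeR adjusted p = 0.00397). With library totals alone the rise was 0.19 in Ad-Klf2 (edgeR adjusted p = 0.0453) and was not called in Ad-GFP (0.17, edgeR adjusted p = 0.103). The difference between both responses was 0.08 (95% interval -0.15 to 0.30, edgeR adjusted p = 0.583).

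Ddit3 encodes CHOP, a transcription factor induced downstream of ATF4 that is linked to cell death under lasting stress. It had the lowest counts of the 5 genes in the overexpression table, 783 to 1771. In the knockdown table it stood at 83.9 and 82.8 CPM in siNeg + PE, against 64.7 and 64.0 CPM in siNeg, a rise of 0.37 on the log2 scale (SE 0.052, edgeR adjusted p = 9.89e-05). The siKlf2 libraries held 61.8 and 70.2 CPM with PE, against 75.7 and 70.9 CPM without PE, a fall with a log2 fold change of -0.15 (standard error 0.052, edgeR adjusted p = 0.0331). That fall was not called with RLE size factors (log2 fold change -0.13, edgeR adjusted p = 0.0546), and it was -0.32 with library totals alone. It was also not called without siKlf2 replicate 1 (log2 fold change -0.09, edgeR adjusted p = 0.286) or without siKlf2 + PE replicate 1 (log2 fold change -0.05, edgeR adjusted p = 0.414). The interaction was -0.53 (SE 0.074, edgeR adjusted p = 0.000766).

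With PE, Ddit3 was lower in siKlf2 than in siNeg, with a log2 fold change of -0.34 (standard error 0.052, edgeR adjusted p = 0.000205), which was -0.60 with library totals alone. Knockdown alone, without PE, gave a rise of 0.19 (SE 0.052, edgeR adjusted p = 0.00983), but with library totals alone that value was -0.01 (edgeR adjusted p = 0.911). Leaving out siNeg replicate 2 ended the call at an edgeR adjusted p of 0.0531, and leaving out siKlf2 replicate 1 ended it at 0.0646. In order the groups were siNeg + PE, siKlf2, siKlf2 + PE and siNeg, and the lower pair overlapped.

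In the overexpression table Ddit3 was lower with added KLF2 both with and without PE. It stood at 23.8, 24.5 and 21.6 CPM in Ad-Klf2 + PE, against 27.6, 27.3 and 30.5 CPM in Ad-GFP + PE (log2 fold change -0.29, SE 0.11, edgeR adjusted p = 0.0262). It stood at 21.3, 18.5 and 22.9 CPM in Ad-Klf2, against 28.2, 23.0 and 29.9 CPM in Ad-GFP (log2 fold change -0.37, SE 0.11, edgeR adjusted p = 0.0115). The gaps between the groups were narrow. The call with PE was lost without Ad-GFP + PE replicate 1 or 3 or without Ad-Klf2 + PE replicate 1 or 3, with an edgeR adjusted p of up to 0.153. In a fit without the 3 Ad-GFP libraries without PE the log2 fold change with PE was -0.36 (edgeR adjusted p = 0.00151). The call without PE was lost without Ad-GFP replicate 3 (edgeR adjusted p = 0.0704) or Ad-Klf2 replicate 2 (edgeR adjusted p = 0.108). PE gave log2 fold changes of 0.16 in Ad-Klf2 (95% interval -0.07 to 0.39, edgeR adjusted p = 0.223) and 0.08 in Ad-GFP (95% interval -0.15 to 0.30, edgeR adjusted p = 0.642), and both were below 0 with library totals alone, at -0.04 and -0.06. Their difference was 0.08 (95% interval -0.24 to 0.41, edgeR adjusted p = 0.696). All neighbours in the order Ad-GFP + PE, Ad-GFP, Ad-Klf2 + PE and Ad-Klf2 overlapped.

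Trib3 encodes a pseudokinase that is a target of ATF4 and CHOP and is known to restrain both the stress response and Akt signalling. Within the knockdown table it had the widest span of the 5 genes, 1.83-fold between the highest and the lowest group mean. Levels were 160 and 146 CPM in siNeg + PE, against 103 and 99.7 CPM in siNeg, a 1.51-fold rise with a log2 fold change of 0.60 (standard error 0.05, edgeR adjusted p = 1.69e-06). In siKlf2 PE had the opposite effect, with 81.6 and 85.8 CPM with PE, against 125 and 116 CPM without PE (log2 fold change -0.53, SE 0.05, edgeR adjusted p = 4.95e-06). The 4 groups did not overlap, and siKlf2 + PE lay below every other knockdown library.

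The interaction for Trib3 was -1.12 (SE 0.071, edgeR adjusted p = 4.15e-06), and 97.5% of all tested genes had a higher value. It ranged from -1.19 to -1.05 when any 1 library was left out. Compared with siNeg under PE, the siKlf2 libraries were lower by a 1.83-fold fall (log2 fold change -0.87, SE 0.05, edgeR adjusted p = 7.77e-08). Without PE, Trib3 was higher in siKlf2 by 0.25 on the log2 scale (SE 0.05, edgeR adjusted p = 0.00117), a call that was lost with library totals alone (log2 fold change 0.06, edgeR adjusted p = 0.42). Its order was siNeg + PE, siKlf2, siNeg and siKlf2 + PE.

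With the viruses the pattern of Trib3 was another one. It stood at 54.6, 66.8 and 53.5 CPM in Ad-Klf2 + PE, against 58.8, 46.9 and 49.6 CPM in Ad-GFP + PE, and the groups overlapped (log2 fold change 0.17, 95% interval -0.08 to 0.42, edgeR adjusted p = 0.232). It stood at 37.4, 37.1 and 49.5 CPM in Ad-Klf2, against 38.0, 33.0 and 40.9 CPM in Ad-GFP, again with overlap (log2 fold change 0.15, 95% interval -0.11 to 0.40, edgeR adjusted p = 0.382). PE raised Trib3 in Ad-Klf2 by 0.50 (SE 0.12, edgeR adjusted p = 0.00151) and in Ad-GFP by 0.48 (SE 0.12, edgeR adjusted p = 0.0046). The interaction was 0.02 (95% interval -0.34 to 0.38, edgeR adjusted p = 0.944), an interval that leaves room for differences of either sign. With library totals alone the PE rise in Ad-Klf2 was 0.30 (edgeR adjusted p = 0.045).

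Asns encodes asparagine synthetase, an enzyme that makes asparagine from aspartate and glutamine and a standard target of ATF4 under amino acid shortage. In siNeg + PE it stood at 268 and 243 CPM, against 192 and 191 CPM in siNeg, a rise of 0.41 on the log2 scale (SE 0.05, edgeR adjusted p = 3.13e-05). With knockdown it stood at 178 and 184 CPM in siKlf2 + PE, against 215 and 198 CPM in siKlf2, a fall with a log2 fold change of -0.19 (standard error 0.05, edgeR adjusted p = 0.00731). With library totals alone the fall was -0.37. It was not called without siKlf2 replicate 1 (log2 fold change -0.12, edgeR adjusted p = 0.107) or siKlf2 + PE replicate 1 (log2 fold change -0.16, edgeR adjusted p = 0.0775). As for Trib3, siKlf2 + PE held the lowest group mean and siNeg + PE the highest, with siKlf2 and siNeg between them.

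The interaction for Asns was -0.61 (SE 0.07, edgeR adjusted p = 0.000221), lower than in 93.0% of all tested genes. Under PE the gene was lower in siKlf2 than in siNeg, with a log2 fold change of -0.50 (standard error 0.05, edgeR adjusted p = 6.63e-06) that was -0.76 with library totals alone, and no library of one group reached the other. Without PE the log2 fold change of knockdown was 0.11 (95% interval 0.00 to 0.22, edgeR adjusted p = 0.0822). It was called with DESeq2 (0.13, adjusted p = 0.0155) and below 0 with library totals alone (-0.09, edgeR adjusted p = 0.225).

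Overexpression lowered Asns in both comparisons. It stood at 87.3, 103 and 82.7 CPM in Ad-Klf2 + PE, against 128, 125 and 132 CPM in Ad-GFP + PE (log2 fold change -0.50, SE 0.087, edgeR adjusted p = 5.54e-05). It stood at 75.4, 78.1 and 87.9 CPM in Ad-Klf2, against 91.0, 91.0 and 111 CPM in Ad-GFP (log2 fold change -0.28, SE 0.087, edgeR adjusted p = 0.0177). The groups with PE lay well apart, and those without PE nearly touched. Left without the 3 Ad-GFP libraries without PE, the fit gave -0.57 with PE (edgeR adjusted p = 4.86e-07). The call without PE was lost without Ad-GFP replicate 3 (log2 fold change -0.16, edgeR adjusted p = 0.174), Ad-Klf2 replicate 1 (edgeR adjusted p = 0.151) or Ad-Klf2 replicate 2 (edgeR adjusted p = 0.11). PE raised Asns in Ad-GFP by 0.40 (SE 0.087, edgeR adjusted p = 0.00155), or by 0.26 with library totals alone. In Ad-Klf2 the PE change of Asns was 0.17 (95% interval -0.01 to 0.36, edgeR adjusted p = 0.0944). The change in Ad-Klf2 was called with DESeq2 (0.22, adjusted p = 0.0289) and was -0.02 with library totals alone. The interaction of -0.22 (95% interval -0.48 to 0.04, edgeR adjusted p = 0.154) was called with no filter on low counts (-0.26, edgeR adjusted p = 0.042), without Ad-GFP replicate 3 (-0.32, edgeR adjusted p = 0.0254) or Ad-Klf2 + PE replicate 2 (-0.34, edgeR adjusted p = 0.0235).

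Counts of 2 genes in the same library share its depth and scaling, so their ratio does not depend on the normalization. Ratios are descriptions here, with no test. Ratios of other gene pairs were not computed, so how often such ratios fail to overlap between groups is not known. For single genes the share without overlap was 74.6% for knockdown under PE and 74.1% for Ad-Klf2 with PE. The ratio of Trib3 to Hspa5 counts was 0.0811 and 0.0863 in siKlf2 + PE, against 0.198 and 0.219 in siNeg + PE, which is 2.49-fold lower. Under overexpression it moved the other way. The ratio was 0.107 to 0.153 in Ad-Klf2 + PE, against 0.0435 to 0.0598 in Ad-GFP + PE, 2.44-fold higher. Atf4 over Hspa5 likewise was 1.66-fold lower in siKlf2 + PE than in siNeg + PE and 2.36-fold higher in Ad-Klf2 + PE than in Ad-GFP + PE. Hspa5, the shared denominator, was higher in siKlf2 + PE (log2 fold change 0.45) and lower in Ad-Klf2 + PE (-1.11), each against its control with PE. In Ad-Klf2 + PE, Ddit3 (-0.29) and Asns (-0.50) were lower too, as they were in siKlf2 + PE. Trib3 (0.17) and Atf4 (0.12) had no called change in Ad-Klf2 + PE with all 4 groups in the fit. Without PE, all 4 ratios to Hspa5 were lower in siKlf2 than in siNeg, by 1.29-fold for Trib3 to 1.46-fold for Atf4, with no overlap between the groups. In Ad-Klf2 without PE the ratios of Ddit3, Atf4 and Asns to Hspa5 were also lower than in Ad-GFP, by 1.55-fold, 1.16-fold and 1.45-fold, while that of Trib3 overlapped. The chaperone and the 4 genes of the integrated stress response thus changed by unequal amounts under both manipulations.

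**Figure D3:**
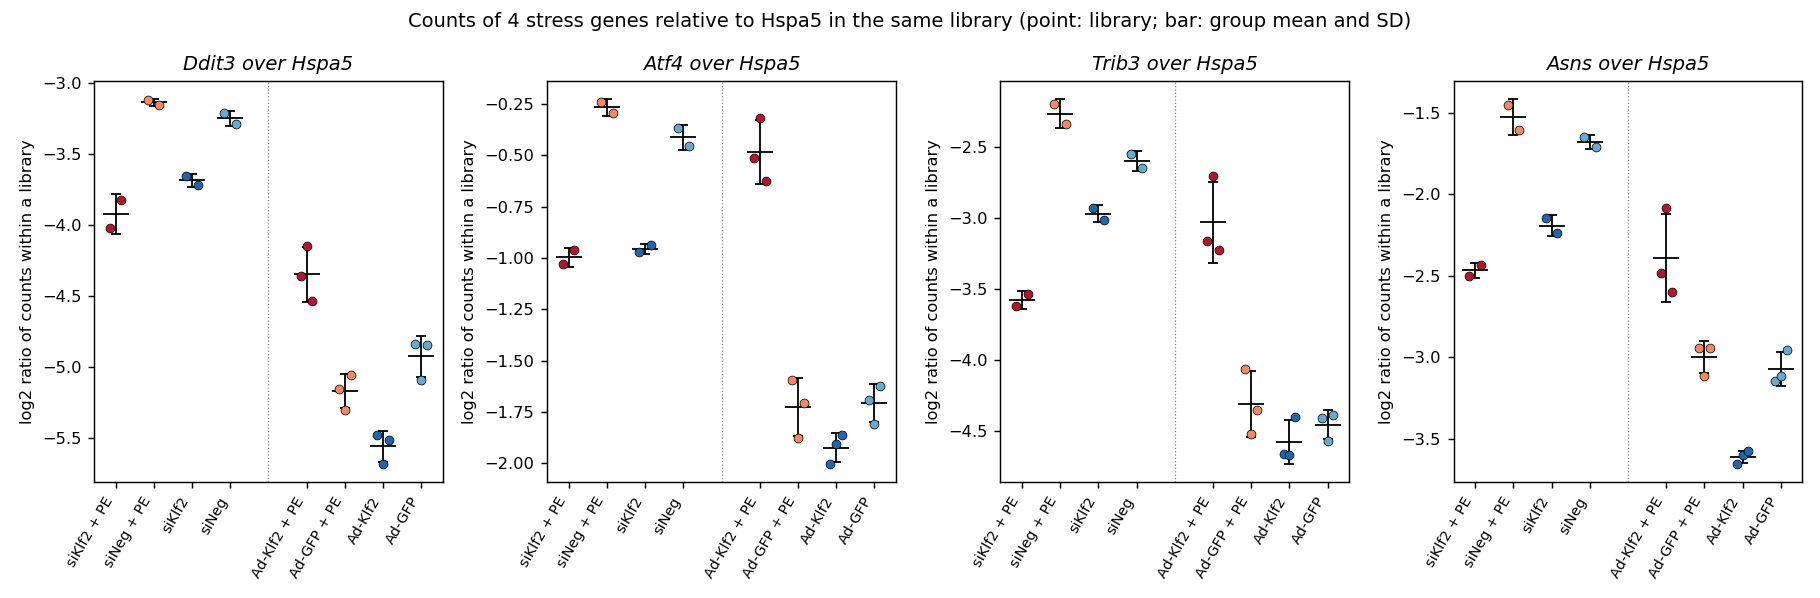
Log2 ratio of the counts of Ddit3, Atf4, Trib3 and Asns to those of Hspa5 within each library, with group means and SD (n = 2 per knockdown group, n = 3 per overexpression group). With PE, all 4 ratios are lower in siKlf2 than in siNeg and higher in Ad-Klf2 than in Ad-GFP, without overlap. Overlap was not examined for ratios of other gene pairs. Hspa5 itself, with PE, is higher in siKlf2 than in siNeg and lower in Ad-Klf2 than in Ad-GFP.

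Among the 4 genes of the integrated stress response, 2 pairs moved most alike over both tables, though not within each. Over the 20 libraries, after subtracting each table's mean, log2 CPM of Atf4 and Trib3 correlated at 0.863 and those of Ddit3 and Asns at 0.861 (Pearson's r). Of 8774 other genes that averaged 10 CPM or more in each table, Atf4 was second in likeness to Trib3, and Asns was second in likeness to Ddit3. In the other direction, Trib3 held place 20 in likeness to Atf4, and Ddit3 held place 4 in likeness to Asns. In the 8 knockdown libraries all 6 correlations between the 4 genes were positive, and there Trib3 and Asns were most alike at 0.964, Ddit3 and Asns stood at 0.926, and Atf4 and Trib3 were least alike at 0.719. In the 12 overexpression libraries the correlations were 0.962 for Atf4 and Trib3 and 0.838 for Ddit3 and Asns, while the other 4 correlations among these genes were 0.218 to 0.427. Over the 20 libraries Hspa5 correlated at -0.403 with Trib3, -0.376 with Atf4, 0.153 with Ddit3 and 0.163 with Asns. The libraries share their groups, so these correlations describe the design as well as the genes, and no p is given.

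**Figure D4:**
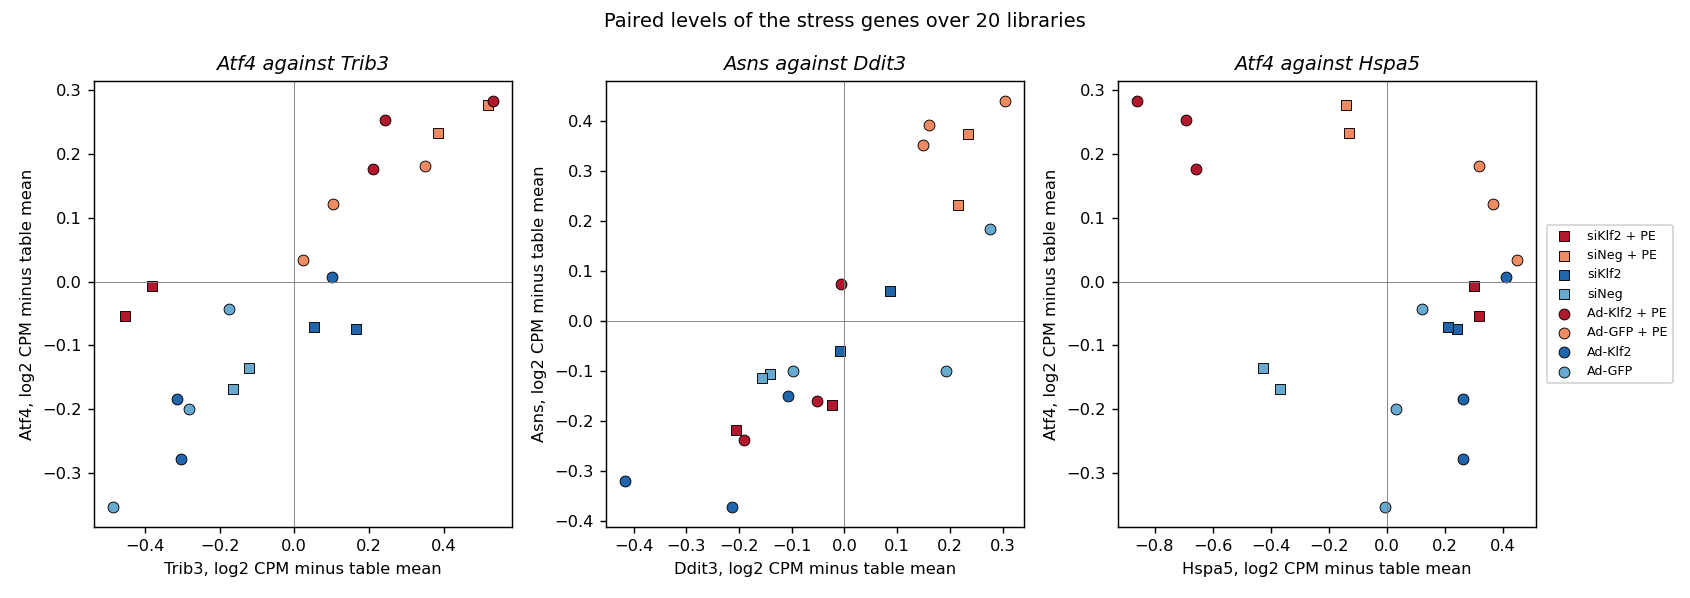
Log2 CPM minus the table mean for 3 pairs of genes in 20 libraries (squares, knockdown table; circles, overexpression table). Atf4 with Trib3 and Asns with Ddit3 rise along a line, with correlations of 0.863 and 0.861, whereas Atf4 and Hspa5 do not, at -0.376.

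The gene outside the 5 that was most like Asns was ENSRNOG00000021006, with a correlation of 0.926 over the 20 libraries, and the same ID was most like Ddit3, at 0.877. For Atf4 the likest ID was ENSRNOG00000020255 at 0.925, which was second for Trib3 at 0.80. The files do not pair these IDs with names. Of the 15 places held by the likest 3 IDs of each gene, 8 were also in the likest 3 by Spearman's rank correlation.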

How the data were processed

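Each RNA library took 400 ng of input RNA, per the labels' protocols. Per the submitters' processing notes, the authors used Trim Galore, STAR and featureCounts with the rat build mRatBN7.2; versions, annotation release and strand setting are not given in the sources used here. Values in both deposited tables are raw counts for each Ensembl ID, with no symbols, and 0 of these IDs matched the reference gene table. For that reason gene lists of the pathway, cell type markers and Klf2 were not analysed. The CUT&Tag peaks were not used, since gene positions were given only on GRCr8, another build.

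Each table was fitted with edgeR 4.0.16 in R 4.3.3, with filterByExpr (minimum count 10, minimum total 15), TMM factors and 1 coefficient per group, which left 18173 and 16153 genes in the knockdown and overexpression tables. A standard error is the size of the log2 fold change divided by the root of its F value. P-values are two-sided. The fit was tested on simulated data, where false calls exceeded their nominal share in the design with 2 libraries a group. Far fewer genes were changed in that simulation than were called in the knockdown table, so its share of false calls may not carry over. Knockdown calls with an adjusted p near 0.05, such as the interaction of Hspa5 and the PE change of Ddit3 in siKlf2, are still the least secure. Alternatives tried were DESeq2 1.42.0, other scalings (RLE size factors and library totals), halved counts in case both mates of a fragment were counted, no filter, a block for the replicate number, fits limited to the groups compared, a fold threshold of 1.5 and fits with each library left out. Fits without the 3 Ad-GFP libraries without PE were added after seeing the data. Replicates differed by more than counting noise. Correlations, ratios and motifs were computed with Python 3.11.15, numpy 2.4.6 and pandas 2.3.3, and figures with matplotlib 3.10.9. The 5 genes and all rules, including the 3 genes most like each in log2 CPM, were chosen with earlier results of these data known.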

Additional observations from a re-analysis of the deposited data

Results flagged for a closer look

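The response to PE differed between siKlf2 and siNeg cells for 5 genes, and for 4 to 5 when any 1 library was left out, by the interaction term of edgeR's quasi-likelihood test with Benjamini-Hochberg adjustment over all genes. On the log2 scale the difference was -0.18 for Hspa5 (adjusted p = 0.0241, not called in 5 of 8 fits with a library left out, with an adjusted p of up to 0.145), -0.53 for Ddit3 (adjusted p = 0.000766), -0.36 for Atf4 (adjusted p = 0.000377), -1.12 for Trib3 (adjusted p = 4.15e-06) and -0.61 for Asns (adjusted p = 0.000221). The interaction was called for 14.4% of the genes tested in this table.

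Between Ad-Klf2 and Ad-GFP cells the PE response differed for Hspa5, by -1.38 (edgeR adjusted p = 1.26e-10), and the interaction was called for 49.1% of the genes tested in this table. All 3 Ad-Klf2 + PE libraries were below all Ad-Klf2 libraries, and all 3 Ad-GFP + PE libraries were above all Ad-GFP libraries. That value includes the Ad-GFP libraries without PE, whose replicates were less alike than those of the other groups.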

How the results depend on the processing

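Of 50 values (5 genes in 10 comparisons), the replicate block changed the call or direction of 0: for Hspa5 under Ad-Klf2 with PE the blocked log2 fold change was -1.11, and 5 genes were called for PE in siNeg as without the block. The labels tie libraries across groups only by a number and do not say whether same-numbered ones share a preparation. Correlations of same-numbered deviations were -0.0432 to 0.0446. Halved counts changed 0 as well. Direction changed with library totals in 9, of which 1 was a call. These were, for knockdown without PE, Ddit3 at -0.0084, Atf4 at -0.12 and Asns at -0.0853; for PE in siKlf2, Hspa5 at -0.0876 and Atf4 at -0.13; for PE in Ad-GFP, Ddit3 at -0.0623; for PE in Ad-Klf2, Ddit3 at -0.0377 and Asns at -0.0213; and the Ad-Klf2 interaction of Trib3 at -0.0391, which was -0.0195 with no filter. The number of genes called for knockdown without PE, 3, was 5 with RLE size factors, with DESeq2 and in a fit of the 2 groups alone. Such a fit also called Atf4 for Ad-Klf2 with PE, which made 4 genes instead of 3, and RLE size factors lost the call of Ddit3 for PE in siKlf2. For the Ad-Klf2 interaction, 1 gene was called, and 2 with no filter. A minimum fold of 1.5 left 1, 1, 1, 0 and 2 genes in the knockdown table (knockdown without PE, knockdown with PE, PE in siNeg, PE in siKlf2, interaction). It left 0, 1, 0 and 1 in the overexpression table (Ad-Klf2 without PE, Ad-Klf2 with PE, PE in Ad-GFP, PE in Ad-Klf2). Leaving out any 1 library gave 2 to 5 genes for knockdown without PE, 1 to 4 for PE in siKlf2, 4 to 5 for the knockdown interaction, 1 to 3 for Ad-Klf2 without PE, 2 to 3 for Ad-Klf2 with PE and 1 to 2 for the Ad-Klf2 interaction. It also gave ranges that crossed 0 for PE on Ddit3 in Ad-GFP (-0.0318 to 0.14) and for the Ad-Klf2 interaction of Ddit3 (-0.0073 to 0.17), Atf4 (-0.0045 to 0.14) and Trib3 (-0.11 to 0.15). In each such fit a knockdown group keeps 1 library, taken to vary like the other groups. Beyond fewer libraries or a stricter rule, the cause of these changes was not tested. No C/EBP-ATF core was found in the 5 promoters with TGATGCAA. Alternatives for gene lists and for peaks near gene starts were not run, for want of symbols and of gene positions on the peaks' build.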

Other observations

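Ratios between the integrated stress response genes also shifted. Asns over Trib3 counts were 2.15 and 2.18 in siKlf2 + PE, against 1.67 and 1.68 in siNeg + PE. In Ad-Klf2 + PE the ratio was 1.54 to 1.60, against 2.18 to 2.67 in Ad-GFP + PE. Asns mRNA thus lay higher relative to Trib3 mRNA after knockdown under PE, and lower relative to it under added KLF2 with PE, with no overlap in either comparison.

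Atf4 over Ddit3 counts were 14.22 to 15.01 in Ad-Klf2 + PE, against 10.2 to 11.8 in Ad-GFP + PE, and 11.1 to 13.7 in Ad-Klf2, against 8.87 to 9.75 in Ad-GFP. In siKlf2 + PE and siNeg + PE this ratio overlapped, at 7.26 to 7.98 and 7.26 to 7.39. Neither pattern was tested, and overlap was not examined for ratios of other gene pairs.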
